A study of Homo sapiens with 3 samples.

Results

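Desmosomes are spot-like junctions that tie neighbouring epithelial cells together, and the 5 genes described here encode parts of them: DSP, JUP, PKP2, PKP3 and DSG2. They were picked by name, around DSP, with their levels in these data already known, so those levels are given as a description and without a test. All 5 were found among the 18692 gene symbols listed in at least 1 of the 3 cultures. The cultures, profiled by single-cell RNA sequencing, were mdR-H460, labelled as the mid-term line, ldR-H460, labelled as the long-term line, and H460, the parent of both. H460 is an established line from a human large-cell lung carcinoma. The labels' protocols describe reprogramming of cancer cells on a feeder layer of irradiated human fibroblasts, but that text breaks off before the derivation ends, and neither a time nor an agent was assigned to a culture. Each culture gave 1 library, so no difference has a replicate check, no p-value was computed, and every ratio compares a pair of libraries. Both derivatives were set against the same H460 library.

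In a desmosome, cadherins of the desmoglein and desmocollin families span the membrane and hold the cadherins of the next cell. Inside the cell their tails bind the armadillo proteins plakoglobin, the product of JUP, and the plakophilins, the products of PKP1, PKP2 and PKP3. Desmoplakin, the product of DSP, connects this plaque to keratin filaments. Plakoglobin is also a relative of beta-catenin and takes part in adherens junctions.

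The mdR-H460, ldR-H460 and H460 libraries held 5151, 4956 and 4531 cells and between 60468481 and 66624830 UMIs (unique molecular identifiers, each standing for 1 captured transcript). The median cell had 11736 UMIs in mdR-H460, 12342 in ldR-H460 and 14685 in H460. Between 24 and 36 cell barcodes were shared by any pair of libraries. Of the epithelial markers, KRT8, KRT18, KRT19 and KRT7 summed to 1846 CPM (a UMI count divided by its library total, times 1000000) or more in every culture together with EPCAM, which was at most 0.35 CPM, while CDH1, the gene of E-cadherin, was listed in none. Summed fibroblast markers were 3.06 CPM in mdR-H460, 4.68 CPM in ldR-H460 and 11.1 CPM in H460, with UMIs for 4, 4 and 5 of the 10 genes, and PDGFRA, POSTN, THY1 and FAP had no UMI in any culture.

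DSP encodes desmoplakin and lies on chromosome 6 (GRCh38, 7541575 to 7586717, plus strand). It had 865 UMIs in mdR-H460, 436 in ldR-H460 and 14 in H460, equal to 12.98, 7.21 and 0.212 CPM. The 14 UMIs of H460 lay in 14 separate cells, and none of those cells shared its barcode with a cell of either derivative. DSP was therefore high in mdR-H460, intermediate in ldR-H460 and low in H460, though above the floor of 3 UMIs (0.0453 CPM) that stands for a count of 0. Between the derivatives, DSP was 1.80-fold lower in ldR-H460 than in mdR-H460 (95% interval 1.60 to 2.03). Intervals here cover counting error only. Against H460, DSP was 61.4-fold higher in mdR-H460 and 34.1-fold higher in ldR-H460, with wide intervals (36.4 to 113 and 20.1 to 62.9) set by the 14 UMIs of the parent.

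JUP, on chromosome 17 (41754604 to 41786931, minus strand), ran in the other direction. It had 407 UMIs in mdR-H460, 818 in ldR-H460 and 1631 in H460, equal to 6.11, 13.53 and 24.64 CPM. The 3 counting intervals do not overlap, and the order mdR-H460, ldR-H460, H460 is the reverse of that of DSP. JUP was 4.03-fold lower in mdR-H460 (3.62 to 4.51) and 1.82-fold lower in ldR-H460 (1.67 to 1.98) than in H460, and 2.21-fold higher in ldR-H460 than in mdR-H460 (1.96 to 2.50).

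PKP2 encodes plakophilin 2, which binds desmoplakin and plakoglobin in the plaque, and lies on chromosome 12 (32790745 to 32896840, minus strand). It had 160 UMIs in mdR-H460, 306 in ldR-H460 and 485 in H460, or 2.40, 5.06 and 7.33 CPM, the same order as JUP. PKP2 was 3.05-fold lower in mdR-H460 (2.55 to 3.67) and 1.45-fold lower in ldR-H460 (1.25 to 1.68) than in H460. Between the derivatives it was 2.11-fold higher in ldR-H460 (1.73 to 2.57).

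PKP3, the gene of plakophilin 3 on chromosome 11 (392614 to 404908, plus strand), had 1286 UMIs in mdR-H460, 1071 in ldR-H460 and 1294 in H460, or 19.3, 17.7 and 19.5 CPM. These are the closest levels of the 5 genes: the intervals of mdR-H460 and H460 overlap, and the ratio of mdR-H460 over H460 was 0.987 (0.913 to 1.07). The direction of that ratio was kept in only 4 of 9 alternative settings (listed further on). It turned furthest to higher in mdR-H460 with TMM scaling factors (log2 ratio 0.17). In ldR-H460 PKP3 was 1.10-fold lower than in H460 (1.02 to 1.20).

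DSG2, the gene of the cadherin desmoglein 2 on chromosome 18 (31498043 to 31549008, plus strand), had 728 UMIs in mdR-H460, 971 in ldR-H460 and 1191 in H460, or 10.9, 16.1 and 17.99 CPM. DSG2 in mdR-H460 was 1.65-fold lower than in H460 (1.5004 to 1.81), and it no longer reached 1.5-fold with TMM (log2 ratio -0.54) or DESeq2 scaling factors (also -0.54). The difference of ldR-H460 from H460 was smaller, 1.12-fold lower (1.03 to 1.22). The cultures' order for DSG2 was that of JUP and PKP2, with ldR-H460 nearer to H460 than to mdR-H460. An antisense gene, DSG2-AS1, overlaps DSG2 and had 3 UMIs in H460 and none listed in the derivatives.

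**Figure D1:**
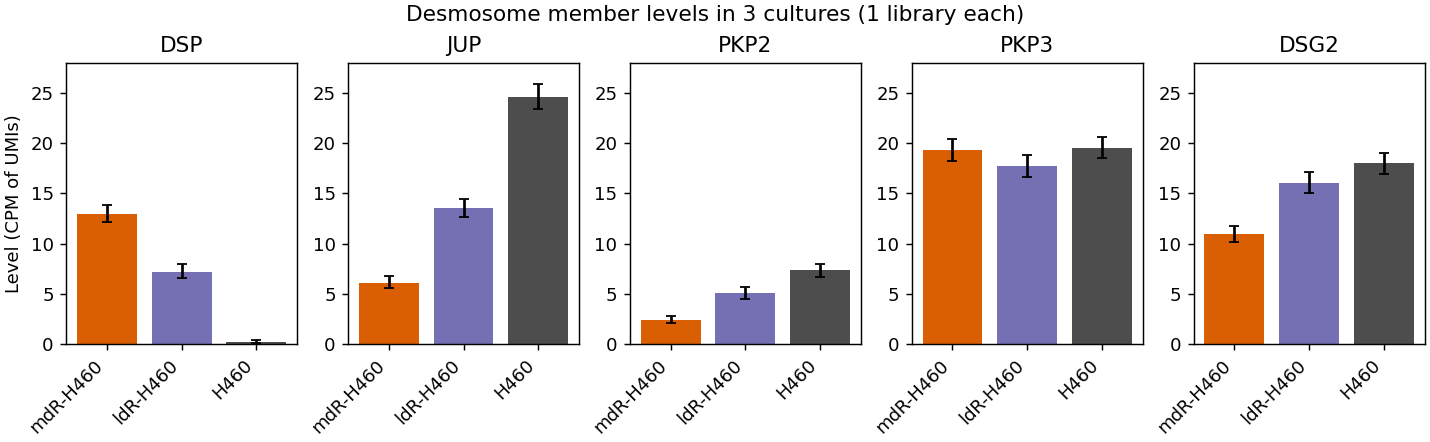
Level of each of the 5 desmosome genes in CPM of UMIs (vertical axis, from 0) in mdR-H460, ldR-H460 and H460, with exact Poisson 95% intervals for counting error as error bars and 1 library per culture. DSP stands at 12.98, 7.21 and 0.212 CPM, JUP, PKP2 and DSG2 step up in the same order of cultures, and PKP3 lies between 17.7 and 19.5 CPM.

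With a ratio of at least 1.5-fold as the rule, for genes at 1 CPM or above in whichever library of the pair was higher, 1 of the 5 genes was higher (DSP) and 3 were lower (JUP, PKP2 and DSG2) in mdR-H460 than in H460. By that rule 6.21% of the 12002 genes so measured were higher and 22.5% lower in mdR-H460. In ldR-H460 against H460, DSP was higher and JUP lower, and the other 3 lay between, where 11.6% and 21.9% of 12151 genes were higher and lower. In ldR-H460 against mdR-H460, JUP and PKP2 were higher and DSP was lower, beside 14.6% and 10.6% of 11799 genes. Under the stricter rule of 2-fold and 10 CPM, DSP was higher and JUP lower in mdR-H460 than in H460 (1.83% and 7.04% of 6402 genes were higher and lower), no member was past it in ldR-H460 against H460 (3.33% and 7.98% of 6556), and JUP was higher in ldR-H460 than in mdR-H460 (2.57% higher and 3.09% lower of 6189). Nothing is read from these counts, since the genes were chosen on the same levels. The median log2 ratio over all genes at 1 CPM or above was -0.17 for mdR-H460 over H460 and -0.13 for ldR-H460 over H460, against -0.72 and -0.16 over the 5 genes. TMM factors add 0.18 and 0.12 to these log2 ratios and DESeq2 factors 0.18 and 0.10.

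The make-up of the transcripts from the 5 genes therefore differed between cultures. DSP supplied 25.1% of their UMIs in mdR-H460 (exact binomial interval 23.7% to 26.6%), 12.1% in ldR-H460 (11.1% to 13.2%) and 0.303% in H460 (0.166% to 0.508%). There were 2.13 DSP UMIs for each JUP UMI in mdR-H460, 0.533 in ldR-H460 and 0.00858 in H460. The 4 genes without DSP summed to 38.7 CPM in mdR-H460, 52.4 CPM in ldR-H460 and 69.5 CPM in H460. Such shares are compared between cultures only, since counts of tags from transcript ends do not compare levels between genes.

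The start regions of DSP, JUP and DSG2 are shown because several repressors of epithelial genes, among them the ZEB and SNAI factors described further on, are known to bind the E-box CACCTG. Capitals mark CACCTG and its reverse complement CAGGTG, so both strands were searched. The windows run from 250 bases before to 50 bases after a gene start in RefSeq (GRCh38.p14), are printed 5′ to 3′ on the gene's strand, and carry 2 matches each.
DSP, chr6:7541421-7541720, plus strand: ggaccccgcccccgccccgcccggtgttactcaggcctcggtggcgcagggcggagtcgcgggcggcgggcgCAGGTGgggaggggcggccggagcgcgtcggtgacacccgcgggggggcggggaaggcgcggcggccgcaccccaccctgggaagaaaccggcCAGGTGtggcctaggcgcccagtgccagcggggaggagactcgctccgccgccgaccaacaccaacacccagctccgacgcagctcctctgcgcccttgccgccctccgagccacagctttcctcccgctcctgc
JUP, chr17:41785927-41786226, minus strand: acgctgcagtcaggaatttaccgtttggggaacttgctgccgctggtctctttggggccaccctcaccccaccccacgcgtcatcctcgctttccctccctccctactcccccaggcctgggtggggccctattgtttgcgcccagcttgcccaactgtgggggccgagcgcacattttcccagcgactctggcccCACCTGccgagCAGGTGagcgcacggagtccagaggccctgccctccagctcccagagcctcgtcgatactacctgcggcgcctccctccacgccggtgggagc
DSG2, chr18:31497927-31498226, plus strand: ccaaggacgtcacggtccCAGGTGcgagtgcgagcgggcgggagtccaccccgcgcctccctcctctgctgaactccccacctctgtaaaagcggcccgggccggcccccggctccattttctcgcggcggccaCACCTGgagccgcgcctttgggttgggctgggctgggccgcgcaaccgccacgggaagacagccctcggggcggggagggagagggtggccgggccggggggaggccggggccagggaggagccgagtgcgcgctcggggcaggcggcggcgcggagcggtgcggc
The matches start at -178 and -85 from the RefSeq start in DSP, at -54 and -43 in JUP and at -232 and -116 in DSG2. These starts differ from the ends of the gene positions given above and all lie inside the genes, the JUP start furthest in. The DSP match at -85, the DSG2 match at -116 and both JUP matches thus fall inside the gene as placed above. A further JUP start, chr17:41786662-41786961, lies nearer to the 5′ end of the gene and has no match in its window. Of 35116 such windows of all genes, 20.6% hold at least 1 match and 3.49% at least 2. A match is a run of letters and not a shown binding site. The grainyhead-type motif AACCGGTT, which reads the same on both strands and does not overlap the E-box, was in none of these windows and in 0.134% of all. DSP, JUP and DSG2 thus each have a window with 2 matches, JUP in only 1 of its windows. Whether the matches bear on the level of any gene was not tested.

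Among other desmosome genes, 7 of 12 looked for were listed in some culture and 4 reached 1 CPM. DSC2, the gene of the cadherin desmocollin 2, had 168 UMIs in mdR-H460, 98 in ldR-H460 and 737 in H460, or 2.52, 1.62 and 11.1 CPM. It was low in both derivatives, 4.42-fold lower in mdR-H460 (3.73 to 5.25) and 6.87-fold lower in ldR-H460 (5.56 to 8.57) than in H460. DSC2 was thus, unlike JUP and PKP2, 1.56-fold lower in ldR-H460 than in mdR-H460 (1.21 to 2.02).

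PKP4, a plakophilin relative also found at adherens junctions, had 9.89 CPM in mdR-H460, 17.6 CPM in ldR-H460 and 8.96 CPM in H460. It was 1.96-fold higher in ldR-H460 than in H460 (1.77 to 2.17), and the interval of mdR-H460 over H460 spans 1 (0.987 to 1.24). PERP, a membrane protein of desmosomes and a p53 target, had 243 CPM in mdR-H460, 167 CPM in ldR-H460 and 206 CPM in H460, and EVPL, the gene of the desmoplakin relative envoplakin, had 1.95, 3.06 and 2.52 CPM. Neither differed by 1.5-fold from H460 in either derivative. PPL, the gene of periplakin, stayed under 1 CPM with 33, 39 and 28 UMIs, DSG3 had 4, 3 and 27 UMIs, and DSC3 had 2 UMIs in ldR-H460 and 7 in H460 and was not listed in mdR-H460. DSG1, DSG4, DSC1, PKP1 and CDSN were not listed. Of the 4 measured genes, 0 were higher and 1 was lower in mdR-H460, and 1 was higher and 1 lower in ldR-H460, both against H460. The shares over all measured genes were 6.21% and 22.5% in mdR-H460 and 11.6% and 21.9% in ldR-H460.

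Other junction classes were described by the same rule. The counts of each list below stand beside the shares of all measured genes. In mdR-H460 against H460, 6.21% were higher and 22.5% lower (median log2 ratio -0.17). In ldR-H460 against H460, 11.6% were higher and 21.9% lower (median -0.13). Of 9 measured adherens junction genes, 0 were higher and 7 lower in mdR-H460 (median log2 ratio -0.61), and 0 were higher and 4 lower in ldR-H460 (-0.45), against H460. The 7 became 3 with TMM or DESeq2 factors. CTNNA1, the gene of alpha-catenin, had 38.0 CPM in mdR-H460, 42.7 CPM in ldR-H460 and 69.5 CPM in H460. CTNNB1, the gene of beta-catenin and the close relative of JUP, had 24.9, 17.9 and 28.3 CPM, lowest in ldR-H460, where it was 1.58-fold lower than in H460 (1.47 to 1.70). PVRL3, a nectin gene, was not listed in either derivative and had 1.60 CPM in H460, which makes it at least 35.6-fold lower in mdR-H460 and, in ldR-H460, lower by at least 32.3-fold, both against a floor of 3 UMIs per library. Another nectin gene, PVRL4, was 2.69-fold lower in mdR-H460 (1.76 to 4.21) and 9.48-fold lower in ldR-H460 (4.59 to 22.7), and PVRL1 was 1.53-fold lower in mdR-H460 (1.24 to 1.89).

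Of 11 measured tight junction genes, 3 were higher and 3 lower in mdR-H460, and 2 were higher and 5 lower in ldR-H460, against H460. CLDN4, the gene of claudin 4, had 18.4 CPM in mdR-H460, 4.68 CPM in ldR-H460 and 9.004 CPM in H460. It was 2.05-fold higher in mdR-H460 (1.86 to 2.26) and 1.92-fold lower in ldR-H460 (1.67 to 2.22), both against H460. CLDN1 had 10.9 CPM in ldR-H460 against 23.4 CPM in H460, 2.15-fold lower (1.96 to 2.36), and CLDN7 was 3.22-fold lower in ldR-H460 (2.35 to 4.49). F11R, a junctional adhesion molecule, was 2.44-fold lower in mdR-H460 (1.78 to 3.38) and 3.60-fold lower in ldR-H460 (2.47 to 5.38), and MARVELD2, the gene of tricellulin, 1.75-fold lower in mdR-H460 (1.29 to 2.39). The polarity gene PARD6B was 1.90-fold higher in mdR-H460 (1.48 to 2.44) and 2.11-fold higher in ldR-H460 (1.65 to 2.71).

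Of 3 measured gap junction genes, GJB2 and GJC1, which encode connexins, were lower in both derivatives. GJB2 had 0.931 CPM in mdR-H460, 0.430 CPM in ldR-H460 and 9.16 CPM in H460, and GJC1 had 0.886, 1.44 and 5.74 CPM. GJA1, the gene of connexin 43, lay between, at 8.03, 9.66 and 11.3 CPM.

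Hemidesmosomes, which fix epithelial cells to the matrix below them and also anchor keratins, had 0 of 5 measured genes higher and 3 lower in each derivative than in H460. LAMB3, which encodes a laminin chain of epithelial basement membranes, had 1.10 CPM in mdR-H460, 0.0827 CPM in ldR-H460 and 4.58 CPM in H460. DST, a gene of the plakin family to which desmoplakin belongs, had 34.9 CPM in mdR-H460, 39.1 CPM in ldR-H460 and 103 CPM in H460. DST was 2.96-fold lower in mdR-H460 (2.82 to 3.10) and 2.64-fold lower in ldR-H460 (2.52 to 2.77). The integrin subunit gene ITGA6 was 4.25-fold lower in mdR-H460 (3.84 to 4.71) and 3.03-fold lower in ldR-H460 (2.77 to 3.33). PLEC, the gene of the plakin plectin, had 19.5 CPM in mdR-H460, 22.3 CPM in ldR-H460 and 22.1 CPM in H460, and the tetraspanin gene CD151 had 183, 133 and 180 CPM, both within 1.5-fold of H460.

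Keratin and other intermediate filament genes went both ways. Of 13 measured genes of this list, 5 were higher and 6 lower in mdR-H460 (median log2 ratio -0.35) and 3 were higher and 3 lower in ldR-H460 (-0.09), against H460. KRT8 and KRT18, the keratin pair of simple epithelia, had 625 and 1755 CPM in mdR-H460, 494 and 1203 CPM in ldR-H460 and 459 and 1079 CPM in H460. KRT7 had 184 CPM in mdR-H460, 108 CPM in ldR-H460 and 57.8 CPM in H460. KRT19, by contrast, had 194 CPM in mdR-H460, 40.3 CPM in ldR-H460 and 1696 CPM in H460. KRT81 and KRT86, hair keratin genes whose near-identical sequences make their split of reads uncertain, had 31.9 and 1.47 CPM in mdR-H460, 27.9 and 2.07 CPM in ldR-H460 and 8.10 and 0.770 CPM in H460. In H460, 165 of the 536 KRT81 UMIs lay in a single cell, and 2.91% of cells had a KRT81 UMI. KRT15 was 4.53-fold lower in mdR-H460 (2.77 to 7.77) and 20.6-fold lower in ldR-H460 (7.76 to 77.1), both against H460. NES, the gene of nestin, had 2.45 CPM in mdR-H460, 7.99 CPM in ldR-H460 and 8.48 CPM in H460, 3.46-fold lower in mdR-H460 against H460 (2.90 to 4.15).

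**Figure D2:**
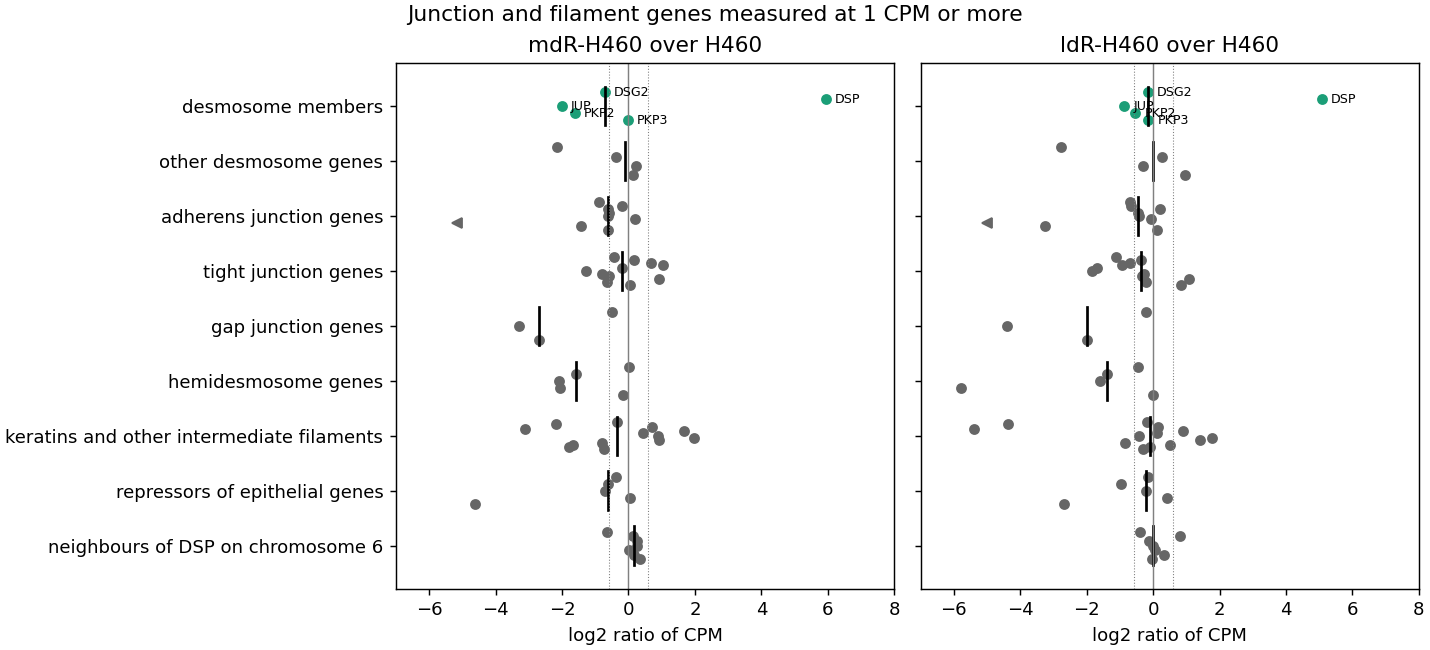
Log2 ratio of CPM for mdR-H460 over H460 (left) and ldR-H460 over H460 (right) of each junction and filament gene at 1 CPM or more in either library, one dot per gene, with the list median as a vertical bar, 1.5-fold as dotted lines and a triangle for a bound against the floor. DSP, at 5.94 and 5.09, stands to the right of every other dot, and the other 4 desmosome genes lie between -2.01 and -0.02 on the left and between -0.87 and -0.14 on the right.

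Regulators of epithelial genes were described beside DSP because ZEB and SNAI factors are known to bind E-boxes. Of 5 measured repressors, 0 were higher and 3 lower in mdR-H460 (1 lower with TMM or DESeq2 factors), and 0 were higher and 2 lower in ldR-H460, against H460. ZEB2 had 0.811 CPM in mdR-H460, 3.09 CPM in ldR-H460 and 19.8 CPM in H460. Its order over the cultures is that of JUP, PKP2 and DSG2 and the reverse of that of DSP. Whether ZEB2 bears on any of these levels was not tested. ZEB2 was 24.4-fold lower in mdR-H460 and 6.40-fold lower in ldR-H460 (5.49 to 7.50). The related ZEB1 had 7.13 CPM in mdR-H460, 9.10 CPM in ldR-H460 and 6.84 CPM in H460. SNAI2, the gene of SLUG, had 6.18 CPM in mdR-H460, 4.88 CPM in ldR-H460 and 9.47 CPM in H460, SNAI1 had 3.38, 3.97 and 4.41 CPM, and TWIST2 7.35, 10.4 and 12.1 CPM.

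Of the activators and surface genes, ELF3 and KLF5 were measured in mdR-H460 against H460, and MAL2 as well in ldR-H460 against H460. ELF3, an epithelial transcription factor, had 5.94 CPM in mdR-H460, 1.01 CPM in ldR-H460 and 1.75 CPM in H460. KLF5, another, had 3.81, 8.37 and 17.9 CPM, the order of JUP. MAL2, a protein of apical transport, was 11.5-fold higher in ldR-H460 than in H460 (6.78 to 21.1).

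Plakoglobin can compete with beta-catenin, so genes of the beta-catenin and TCF pathway were counted too: 0 of 6 were higher and 2 lower in mdR-H460, and 1 was higher and 1 lower in ldR-H460, against H460. With TMM factors 1 was higher and 1 lower in mdR-H460, and with DESeq2 factors 0 were higher and 1 lower. LGR5, an R-spondin receptor and WNT target gene, was 12.4-fold lower in mdR-H460 (5.75 to 31.7) and 11.2-fold lower in ldR-H460 (5.22 to 28.7). ZNRF3, a WNT feedback inhibitor, was 1.52-fold lower in mdR-H460 (1.20 to 1.92). MYC had 71.0 CPM in mdR-H460, 90.7 CPM in ldR-H460 and 53.7 CPM in H460, while the transcription factor gene TCF7L2 had 13.2, 17.3 and 15.1 CPM.

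The genes next to DSP on chromosome 6 were described by the same rule. Of 7 measured neighbours, 0 were higher and 1 lower in mdR-H460 than in H460, beside 6.21% and 22.5% of all measured genes. In ldR-H460 against H460, 1 was higher and 0 lower, beside 11.6% and 21.9% of all measured genes. Nothing is read from counts over so few genes. SNRNP48, which starts at 7590199, just beyond the end of DSP, was 1.26-fold higher in ldR-H460 (1.14 to 1.39). BMP6, a growth factor gene, was 1.77-fold higher in ldR-H460 (1.30 to 2.42), and BLOC1S5 was 1.57-fold lower in mdR-H460 (1.31 to 1.89), a call lost with TMM or DESeq2 factors. SSR1 had 82.8 CPM in mdR-H460 against 65.5 CPM in H460 and EEF1E1 had 117 CPM in mdR-H460 against 99.2 CPM in H460, both within 1.5-fold.

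Likeness to DSP was measured over the 3 libraries as the root mean square distance between log2 levels, each centred on its own mean. Of 6640 other genes at 10 CPM or more in some library, 0 lay within 0.5 and 7 within 1 of DSP, beside a median distance of 2.68. The nearest 5 were FAM162B at 0.589, HPD, an enzyme of tyrosine breakdown, at 0.610, the interferon-induced IFITM1 at 0.875, FAM83A at 0.890 and the protein kinase A inhibitor PKIB at 0.916. FAM162B had 11.3 CPM in mdR-H460, 2.61 CPM in ldR-H460 and 0.181 CPM in H460, and HPD 17.2, 26.9 and 0.483 CPM. The other 4 desmosome genes lay between 2.65 (PKP3) and 3.38 (JUP) from DSP. JUP and PKP2 lay 0.175 from each other, the closest pair of the 5 genes. With 3 points per gene these distances only describe the cultures.

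The share of cells with at least 1 UMI depends on depth, so cells were thinned to 5000 UMIs and shallower ones left out (1271 in mdR-H460, 435 in ldR-H460 and 681 in H460). DSP was then detected in 287 of 3880 cells of mdR-H460 (7.40%, exact interval 6.59% to 8.27%), in 156 of 4521 of ldR-H460 (3.45%, 2.94% to 4.02%) and in 5 of 3850 of H460 (0.130%, 0.0422% to 0.303%). Before thinning the shares were 14.1%, 7.63% and 0.309%. No cell held more than 4 DSP UMIs in either derivative or more than 1 in H460. No cell type that should lack DSP was present, so a background from free RNA was not measured apart from the share in H460.

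JUP was detected in 4.18% of thinned cells in mdR-H460, 6.72% in ldR-H460 and 12.1% in H460, and in 7.11%, 14.6% and 27.0% before thinning. For PKP2 the thinned shares were 1.47%, 2.74% and 4.26%, and for DSG2 4.87%, 8.16% and 8.81%. PKP3 was in 9.41% of thinned cells of mdR-H460, 8.32% of ldR-H460 and 9.40% of H460. The order of cultures in these shares is thus that of the CPM for DSP, JUP, PKP2 and DSG2. At least 1 of the 5 genes was detected in 24.9% of thinned cells in mdR-H460, 25.8% in ldR-H460 and 30.6% in H460, and at least 2 in 2.16%, 3.34% and 3.77%.

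Whether the partners of DSP followed it from cell to cell was described within each derivative. In mdR-H460, JUP was detected in 16 of the 287 thinned cells with a DSP UMI (5.57%, 3.22% to 8.90%) and in 146 of the 3593 without (4.06%, 3.44% to 4.76%). In ldR-H460 JUP was detected in 16 of 156 cells with DSP (10.3%, 5.98% to 16.1%) and in 288 of 4365 without (6.60%, 5.88% to 7.38%). The ratio of JUP CPM in cells with over cells without DSP was 1.38 in mdR-H460 (0.785 to 2.29) and 1.46 in ldR-H460 (0.823 to 2.41), so both intervals hold 1.

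The same held for the other 3 genes. The ratio for PKP2 was 1.39 in mdR-H460 (0.489 to 3.23) and 0.888 in ldR-H460 (0.238 to 2.33), for PKP3 0.939 (0.610 to 1.39) and 0.656 (0.298 to 1.26), and for DSG2 0.753 (0.369 to 1.38) and 1.12 (0.619 to 1.86). These few cells leave room for a difference of more than 2-fold in every one of these genes. It could be upward for JUP and PKP2, and downward for PKP2, PKP3 and DSG2. At 10000 UMIs per cell the interval excluded 1 in mdR-H460 for JUP (1.84, 1.17 to 2.79) and PKP2 (2.28, 1.05 to 4.56), whose levels also moved with depth (described further on). PERP was higher in cells with DSP in mdR-H460, with a ratio of 1.28 (1.16 to 1.41). The PERP ratio there was 1.11 (1.03 to 1.20) at 10000 UMIs and 1.09 (0.958 to 1.25) among cells called G1. In ldR-H460 its ratio was 1.22 (1.04 to 1.43), and 0.957 (0.852 to 1.07) at 10000 UMIs. For PKP4 in ldR-H460 the interval included 1 at 5000 UMIs (0.806 to 2.14) and excluded it at 10000 UMIs (1.44, 1.07 to 1.91). EVPL in ldR-H460 went the other way, detected in 0 of 156 thinned cells with DSP and in 68 of 4365 without. Its ratio was 0.363 with no thinning (0.131 to 0.806) and 0.578 at 10000 UMIs (0.155 to 1.53). Over thinned cells, the correlation between any 2 of the 5 genes lay between -0.03 and 0.05 in every culture, with 3850 to 4521 cells of 1 library behind each value. None of the 5 genes was detected in more than 12.1% of thinned cells (JUP in H460). With counts so sparse, a correlation can stay near 0 even where genes move together, so nothing is read from these values.

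**Figure D3:**
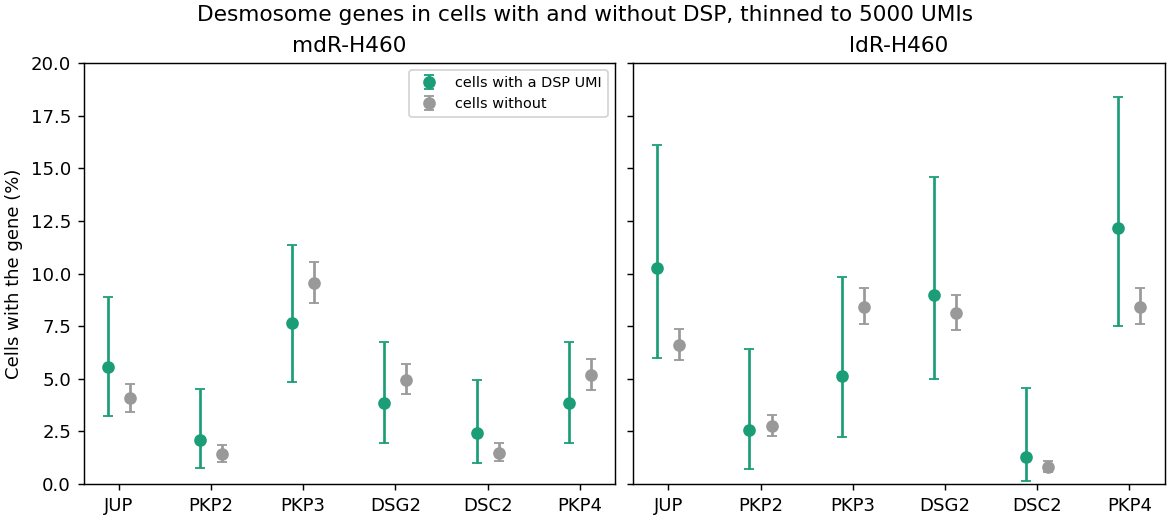
Percent of thinned cells in which each of 6 desmosome genes was detected, among cells with a DSP UMI (green) and without (grey), in mdR-H460 (left, 287 and 3593 cells) and ldR-H460 (right, 156 and 4365 cells), with exact binomial 95% intervals as bars. The bars of the paired points overlap for the 6 genes drawn, as for JUP at 5.57% and 4.06% in mdR-H460. For PERP, which is not drawn, they lie apart in mdR-H460 (76.3% and 67.1%) and only just in ldR-H460 (65.4% and 55.9%).

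Genes with 200 or more UMIs were also ranked by their ratio between cells with and without DSP. In mdR-H460 the leading 5 were RAMP1, CTD-3185P2.1, TM4SF18, RP3-512B11.3 and ST3GAL4-AS1, at 3.56 to 2.67, where 90% of the genes ranked lay between 0.569 and 1.52. RAMP1, a subunit of calcitonin-family receptors, had 27 UMIs in the 287 cells with DSP and 95 in the 3593 without (ratio 3.56, 2.23 to 5.51). In ldR-H460 they were NDUFA4L2, ADSSL1, LIMK1, RP11-771K4.1 and PLCG2, at 3.41 to 3.20, where 90% of genes lay between 0.476 and 1.64. None of the 5 leading genes is common to both derivatives, none is a desmosome gene, and each was picked as the extreme of 9028 ratios in mdR-H460 or 9025 in ldR-H460. Several desmosome genes could not appear, since they fell short of 200 UMIs. These were PKP2, DSC2 and EVPL in mdR-H460 (160, 168 and 130 UMIs) and DSC2 and EVPL in ldR-H460 (98 and 185 UMIs). PPL, DSG3 and DSC3, with still fewer UMIs, were left out in both derivatives.

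Levels also moved with the depth of the cell, most steeply for JUP and PKP2 in mdR-H460. In mdR-H460, JUP had 15.9, 13.7, 6.05 and 3.12 CPM in the 4 equal groups of cells from shallowest to deepest, and PKP2 8.38, 6.65, 2.18 and 0.802 CPM. The ratio of the shallowest over the deepest group was 5.11 for JUP in mdR-H460 (3.43 to 7.46), 2.41 in ldR-H460 (1.97 to 2.94) and 1.44 in H460 (1.18 to 1.75). DSP fell less steeply in mdR-H460, with 15.9, 19.6, 14.2 and 10.0 CPM. PKP3 stayed between 18.7 and 20.9 CPM over the groups of mdR-H460 and was lowest in the shallowest group of ldR-H460 (13.3 CPM) and H460 (16.3 CPM).

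**Figure D4:**
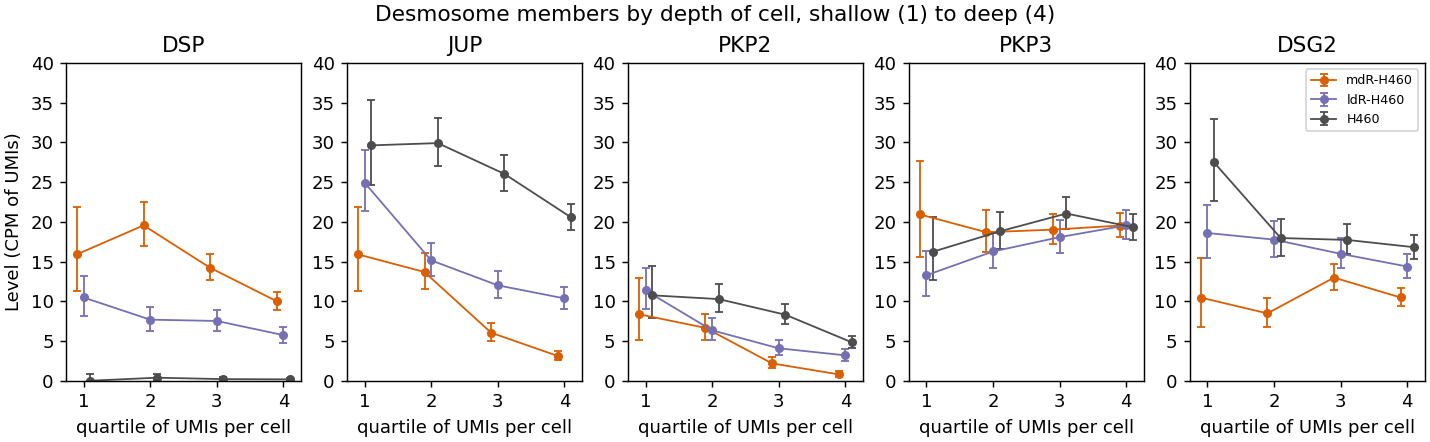
Level of the 5 genes in CPM of UMIs against the quartile of cells by UMIs per cell, from shallow (1) to deep (4), in mdR-H460, ldR-H460 and H460, with exact Poisson 95% intervals as bars. JUP and PKP2 are lower at 4 than at 1 in all cultures, in mdR-H460 down to 3.12 and 0.802 CPM, and PKP3 in mdR-H460 stays between 18.7 and 20.9 CPM.

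Called cell cycle phase moved with depth: the median G1, S and G2/M cell had 9795, 16786 and 19602 UMIs in mdR-H460. Of the called cells 32.9% were G1 in mdR-H460, 15.8% in ldR-H460 and 34.9% in H460. JUP had 13.6, 3.93 and 3.17 CPM in G1, S and G2/M cells of mdR-H460, 19.7, 12.3 and 12.2 CPM in those of ldR-H460 and 35.2, 22.8 and 16.4 CPM in those of H460. It was highest in G1 in every culture, and the ratio of G1 over G2/M was 4.30 in mdR-H460 (3.36 to 5.54), 1.62 in ldR-H460 (1.33 to 1.96) and 2.15 in H460 (1.88 to 2.46). PKP2 was also highest in G1, at 5.09 CPM in mdR-H460, 8.87 CPM in ldR-H460 and 8.80 CPM in H460.

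The gap between cultures in JUP and PKP2 therefore depended on the phase. JUP was lower in mdR-H460 than in H460 by 2.58-fold in G1 cells (2.20 to 3.04), 5.80-fold in S (4.55 to 7.49) and 5.17-fold in G2/M (4.11 to 6.55). PKP2 was lower in mdR-H460 by 1.73-fold in G1 (1.31 to 2.30), 4.20-fold in S (2.92 to 6.19) and 5.00-fold in G2/M (3.33 to 7.69). Among G1 cells PKP2 in ldR-H460 was level with H460, with a ratio of 1.01 (0.751 to 1.34). In G1 cells JUP was 1.44-fold higher in ldR-H460 than in mdR-H460 (1.16 to 1.79), under the 1.5-fold rule. The part of depth and phase in these gaps was not tested.

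DSP stayed far above H460 in each phase, by 88.8-fold in G1 (34.3 to 328), 44.2-fold in S (21.1 to 111) and 70.9-fold in G2/M cells of mdR-H460 (24.1 to 346). Its level in mdR-H460 was 18.2 CPM in G1, 11.8 CPM in S and 10.99 CPM in G2/M. DSG2 differed little between phases, with 10.9, 10.7 and 11.1 CPM in mdR-H460 and 18.7, 17.0 and 18.5 CPM in H460.

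**Figure D5:**
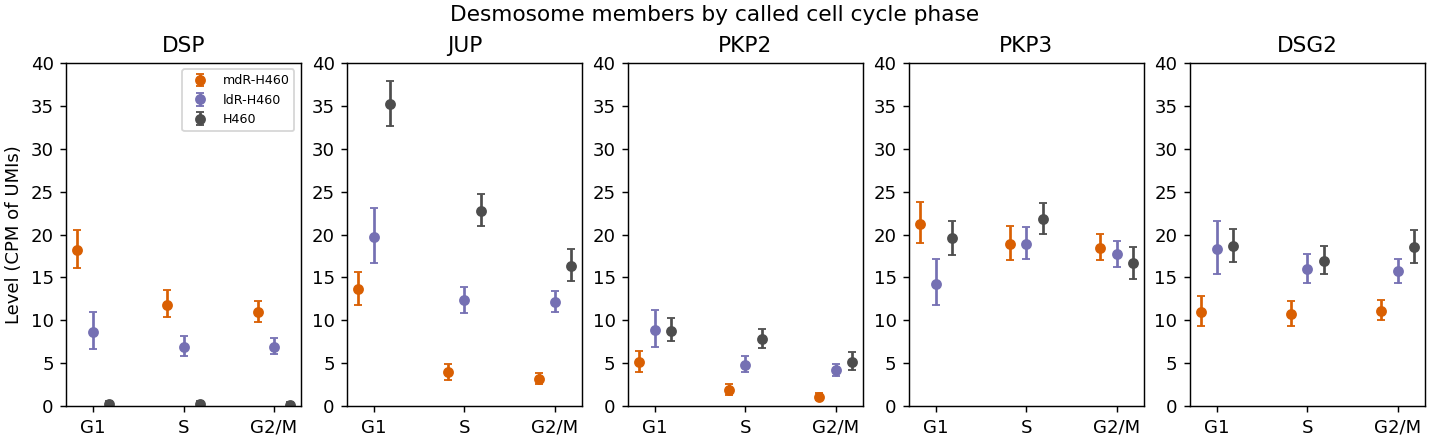
Level of the 5 genes in CPM of UMIs in cells called G1, S and G2/M of mdR-H460, ldR-H460 and H460, with exact Poisson 95% intervals as bars. JUP and PKP2 are highest in G1 in all cultures, and DSG2 in mdR-H460 stays between 10.7 and 11.1 CPM.

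Clusters, formed without the desmosome genes and called by number and leading gene, split each culture mainly in a pair. In mdR-H460 these were cluster 5 (led by the fibrinogen gene FGG, 1696 cells, median 8376 UMIs) and cluster 2 (led by S100A2, 2254 cells, median 19545 UMIs). DSP was 1.74-fold higher in cluster 5 than in cluster 2 (18.7 against 10.7 CPM), JUP 4.36-fold higher (13.4 against 3.07 CPM) and PKP2 5.28-fold higher (5.60 against 1.06 CPM), while PKP3 had 20.4 against 18.9 CPM and DSG2 10.7 against 11.4 CPM. DSP, JUP and PKP2 were thus all higher in the same cluster of mdR-H460, the one with the shallower cells.

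In ldR-H460, cluster 6 (led by ANKRD1, 1366 cells) and cluster 1 (led by LINC01433, 3251 cells) held most cells. JUP had 21.8 CPM in cluster 6 against 10.9 CPM in cluster 1 and DSP 8.68 against 6.85 CPM, while PKP3 was lower in cluster 6, at 12.4 against 19.4 CPM. In H460, JUP had 34.6 CPM in cluster 4 (led by PAEP, 1842 cells) against 17.3 CPM in cluster 3 (led by FGF13, 1865 cells), and DSP had 6 and 7 UMIs in them. Each of these 6 clusters came almost wholly from 1 library, and these differences are a description within it.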

How the data were processed

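Single-cell 3′ RNA libraries of 3 cultures were used, 1 each. The submitters' processing notes name Cell Ranger 3.0.2, Seurat 3.0 and GRCh38 with no role for each, and no source used here names the annotation release. The authors deposited UMI counts per gene symbol and cell, whole numbers without normalization, for cells that passed their quality filter per the series design text. A symbol a table does not list was set to 0. The 5 genes, the other gene lists and the naming rule (all desmosome genes at 1 CPM, up to 4 largest ratios per other list, the 5 nearest to DSP, the 5 leading ratios in cells with DSP) were chosen with earlier results of these data known. A gene of the hemidesmosome list is not reported here and was left out of its counts.

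UMIs were summed per library and divided by its total to give CPM, at 60468481 to 66624830 UMIs a library. Sums have exact Poisson, shares Clopper-Pearson and ratios binomial-based 95% intervals, which cover counting error only. Phases (scanpy 1.11.5) were called on cells thinned to 5000 UMIs. Clusters used Leiden resolution 0.5 on 15 neighbours, 30 principal components and 2000 variable genes, without desmosome genes. Doublets were not called and all deposited cells were kept. Scaling alternatives came from edgeR 4.0.16 and DESeq2 1.42.0 factors. Gene positions are from GENCODE 29 and start regions from RefSeq, which held DSP, JUP and DSG2. The scripts were tested on simulated data.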

Additional observations from a re-analysis of the deposited data

How the results depend on the processing

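The 5 genes' log2 ratios were recomputed under 9 alternatives (TMM factors, DESeq2 factors, a total that leaves out mitochondrially encoded and ribosomal protein genes, equal weight per cell, thinned cells, cells with at least 1000 UMIs, cells with fewer than 4000 genes, G1 cells, and no clusters led by S100A8 or HSPA6). DSP kept its direction and stayed past 1.5-fold in all 9, with log2 ratios of 5.91 to 6.47 for mdR-H460 over H460, 4.82 to 5.40 for ldR-H460 over H460 and -1.12 to -0.80 for ldR-H460 over mdR-H460. The last moved beyond its counting interval to -1.12 with thinned cells and -1.08 in G1 cells. JUP ranged from -2.07 to -1.37 for mdR-H460 over H460, PKP2 from -1.61 to -0.79 and DSG2 from -0.99 to -0.54. PKP2 for ldR-H460 over H460 ranged from -0.74 to 0.01 and changed sign in G1 cells only. PKP3 for mdR-H460 over H460 ranged from -0.03 to 0.17 and kept its direction in 4 of the 9.

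Counts of the 5 genes moved in ldR-H460 against H460, where 0 were higher at a minimum of 10 CPM, 2 were lower with thinned cells and with cells under 4000 genes, and 0 were lower at 2-fold. In ldR-H460 against mdR-H460, 1 was higher at 10 CPM and 0 were lower at 2-fold. There DSG2, short of 1.5-fold at a log2 ratio of 0.56, passed it without mitochondrially encoded and ribosomal protein genes (0.60), with equal weights (0.75), with thinned cells (0.79) and in G1 cells (0.74). That made 3 genes higher rather than 2 in the first 3 of these. In G1 cells 2 were higher, since JUP no longer passed (0.53). Of the other desmosome genes measured under each setting, in mdR-H460 against H460, 2 were higher in G1 cells and 2 lower with thinned cells. In ldR-H460 against H460, 2 were higher without mitochondrially encoded and ribosomal protein genes and in G1 cells, and 0 at 2-fold. In ldR-H460 against mdR-H460, 2 were higher and 1 lower at first. Then 1 was higher with TMM, DESeq2 and 10 CPM and 0 at 2-fold, while 2 were lower with TMM, DESeq2, equal weights, thinned cells, cells under 4000 genes and G1 cells, and 0 at 10 CPM and 2-fold.

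Over all genes at 2-fold and 10 CPM, 117 were higher and 451 lower in mdR-H460 than in H460 (1015 and 2376 with no minimum beyond 3 UMIs, and 679 lower at 5 CPM). In ldR-H460 against H460, 218 were higher and 523 lower (1507 and 2514 with no such minimum, 337 higher at 5 CPM and 345 higher without mitochondrially encoded and ribosomal protein genes). In ldR-H460 against mdR-H460, 159 were higher and 191 lower (1469 and 1348 with no such minimum, 255 and 371 in G1 cells, 261 higher at 5 CPM and 273 higher without mitochondrially encoded and ribosomal protein genes). These counts rise with a lower minimum because more genes enter. For the others that moved, the cause was not tested.

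The share of cells with DSP follows depth by construction. With no thinning it was 14.1% in mdR-H460, 7.63% in ldR-H460 and 0.309% in H460, at 2000 UMIs 2.96%, 1.54% and 0%, and at 10000 UMIs 11.5% and 6.18% in mdR-H460 and ldR-H460. The DSG2 ratio of cells with over cells without DSP in ldR-H460 was 0.524 in G1 cells, with 2 UMIs behind it. No paired analysis was possible because each culture gave 1 library and the replicate numbers only name it.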
